A study of Homo sapiens with 8 samples.

Results

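The DNA topoisomerases and the enzymes that repair their trapped complexes were described in nascent RNA from 2 human colorectal cancer cell lines. The 8 genes were TOP1, TOP1MT, TOP2A, TOP2B, TOP3A, TOP3B, TDP1 and TDP2, chosen by symbol among the 18638 gene models of the deposited tables, and all 8 were tested in each cell line. In HCT116 cells labelled TOP2B-/-, nascent reads over TOP1 and TOP2B fell, those over TDP1 rose 1.52-fold, and no topoisomerase was called higher. TOP1 shared its fall with chromosome 20, where the median log2 fold change of the other genes was -0.56. When libraries were scaled on that chromosome, TOP1 had a log2 fold change of -0.16 and was not called (edgeR adjusted p = 0.0538). In DLD-1 cells given auxin to deplete RPB1, 6 of the 8 genes were called lower, beside 35.0% of all tested genes (67.3% were called in either direction). The call of TOP2A was lost and TOP1 turned higher once background reads were subtracted and libraries scaled anew. These directions are relative to other genes, and 4 of the 8 genes ended near or under the background density.

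Topoisomerases relieve the twisting of DNA that builds up ahead of and behind polymerases. Type IB enzymes (TOP1 in the nucleus and TOP1MT in mitochondria) and type IA enzymes (TOP3A and TOP3B) cut a single strand, whereas type II enzymes (TOP2A and TOP2B) pass a duplex through a break in both strands of another. Each forms a short-lived covalent bond between a tyrosine of the enzyme and the DNA end. When that complex is trapped, TDP1 releases TOP1 from the DNA end and TDP2 releases type II enzymes, and the break can then be sealed by the single-strand or end-joining machinery. TOP2A is made mainly in dividing cells and acts in mitosis, while TOP2B is made also in resting cells and acts at transcribed genes.

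Nascent RNA was isolated by factory-seq, in which nuclei are treated with DNase I and caspases release the RNA held at sites of transcription. DLD-1 cells carried a degron (mAID), with the fluorescent protein mClover, on POLR2A, which encodes the catalytic RNA polymerase II subunit RPB1, and TIR1 under a Tet-inducible promoter. They were untreated or had received auxin at 500 µM for 14 h after 24 h of doxycycline. HCT116 cells carried the degron on TOP2A in both groups and were untreated TOP2A-mAID cells or cells labelled TOP2B-/- TOP2A-mAID. Each of the 4 groups had 2 libraries. For the TOP2B-/- libraries the titles read as control whereas the treatment field reads as 14 h of auxin and the names of their count columns also read as auxin. If the auxin labels hold, the protocol gives auxin at 500 µM after 24 h of doxycycline here too. The comparison therefore changes genotype and, in that case, TOP2A protein and exposure to auxin and perhaps doxycycline as well. These cannot be told apart. All 8 titles call the cells asynchronous, and the protocol adds a sort for G1 cells where applicable without saying for which libraries. The labels also leave unsaid how the TOP2B allele was edited, whether each line is a single clone and whether untreated cells received doxycycline. Nothing in the labels ties the 2 libraries of a group to separate cultures, so p-values measure only the spread between libraries, which may be technical.

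Total counts ranged from 32129400 to 36491540 in HCT116 and from 10739622 to 62626875 in DLD-1, where both auxin libraries lay under both controls. Background, read from genes silent in the other line, made up 2.25% and 9.05% of counts in DLD-1 controls, 39.5% and 59.8% after auxin, and 0.261% to 3.05% in HCT116. In HCT116 control replicate 2 the quartiles of these silent genes were 0 and 6.91 times their median, so its background is uncertain. Their quartiles lay closer together in the other HCT116 libraries. POLR2A had a log2 fold change of -0.78 after auxin with an edgeR adjusted p of 0.0773 and was not called, though auxin acts on the protein. The epithelial markers KRT8 and KRT18 were abundant in every library, while KRT20 and CDX1 were at or under 0.275 CPM (scaled counts relative to library size) in all 4 HCT116 libraries. The 12 markers of fibroblasts, leukocytes and endothelium were low in DLD-1 controls. After auxin 10 of them were called higher, beside 32.2% of all tested genes. Levels were summed per list in RPKM (reads per kb of gene model, on a common depth scale), with background not subtracted. These sums were 0.0791 to 0.514 in controls and 0.923 to 2.32 after auxin. In HCT116 the same sums were 0.0513 to 2.66 in controls and 0.0621 to 1.80 in the libraries labelled TOP2B-/-, and COL1A1 gave most of the highest sums. Their part in the results below was not tested.

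Levels of the 8 genes were compared as RPKM, scaled between libraries by TMM, and gene models include introns. In HCT116 controls, TOP2A stood first at 22.9 ± 1.50 (SD, n = 2). TOP1 came next at 8.44 ± 0.0134 (SD, n = 2), followed by TOP3B at 3.52 ± 0.297 and TOP2B at 2.84 ± 0.0630. TDP2 at 1.47 ± 0.0461, TOP1MT at 0.861 ± 0.0678, TDP1 at 0.625 ± 0.0116 and TOP3A at 0.547 ± 0.0466 made up the lower part. No neighbours in this order overlapped between libraries, and the narrowest gap was that of TDP1 and TOP3A. In DLD-1 controls TOP2A was again first at 26.9 ± 4.80 (SD, n = 2), and TOP2B at 4.59 ± 0.140 stood above TOP1 at 3.59 ± 0.0543. TDP2 (2.70), TOP3B (1.92) and TDP1 (0.937) followed, and TOP3A (0.359) and TOP1MT (0.347) overlapped between libraries. The cell lines were counted in separate tables and differ in the tagged gene, so no test was made between them.

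**Figure D1:**
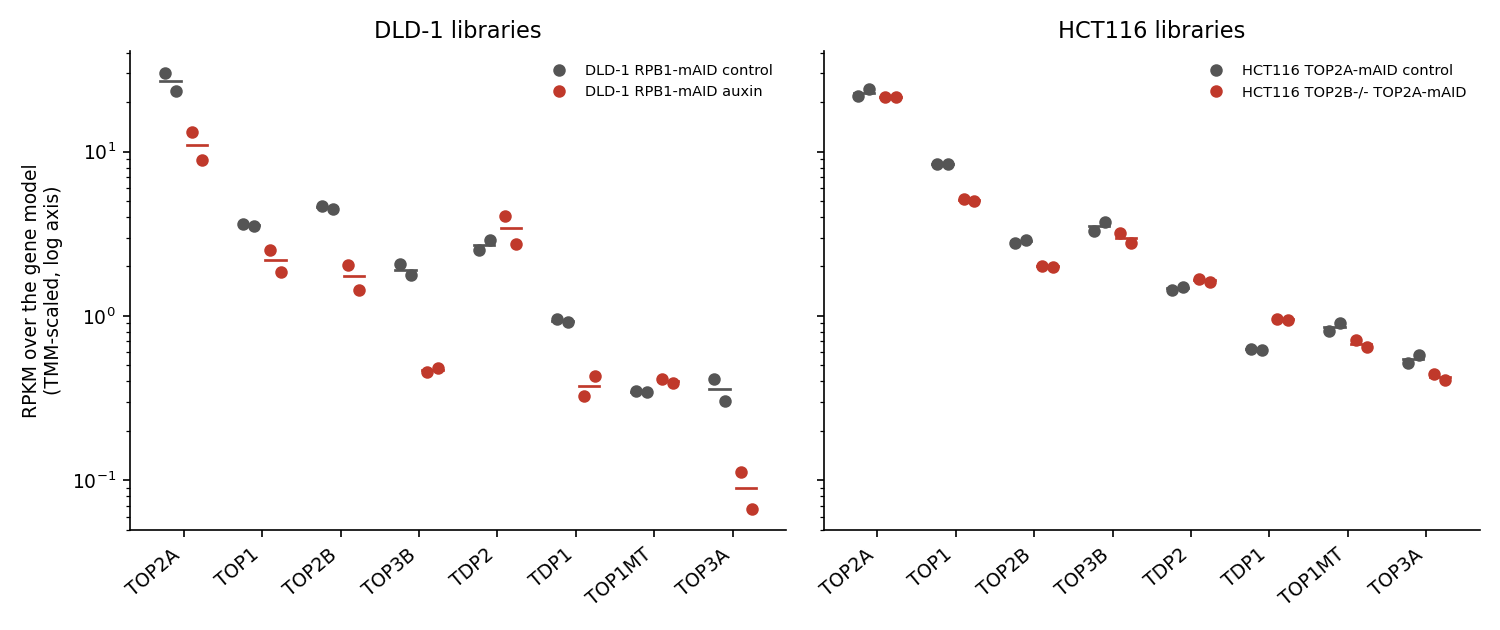
Level of each gene in every library, in RPKM (TMM-scaled, log axis), with DLD-1 on the left and HCT116 on the right. Points are single libraries and bars are group means (n = 2), with controls in grey and auxin or TOP2B-/- libraries in red. TOP2A is highest in all 4 groups, and TDP1 is the only gene of the 8 called higher in either line.

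The HCT116 comparison asks which of these genes differed in cells labelled TOP2B-/-, and whether any other topoisomerase was higher there. TOP2B (chromosome 3, 25597905 to 25664372, minus strand, GRCh38) had 185.7 and 191.7 CPM in the controls and 134.6 and 131.6 CPM in the libraries labelled TOP2B-/-. The groups did not overlap, and reads remained over the gene in each library, from 4313 to 6799. TOP2B fell by 29.5%, with a log2 fold change of -0.50 (SE 0.041) and an edgeR adjusted p of 0.0269. Counts covered the whole span with introns, so they check the label only in part and say nothing of protein. TOP2B lay below all 11 tested genes within 2 Mb, whose median was 0.26 on the same scale. Its model shares 27 bases with RARB on the opposite strand, and RARB had 819 reads over the 4 libraries against 22014 for TOP2B.

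TOP2A (chromosome 17, 40388521 to 40417950, minus strand), the other type II enzyme, had 641.5 and 703.9 CPM in controls and 634.0 and 633.9 CPM in the libraries labelled TOP2B-/-. The libraries labelled TOP2B-/- lay just under both controls. The log2 fold change of -0.086 (edgeR adjusted p = 0.466) was not called, and its 95% interval ran from -0.25 to 0.078. Within each library, reads over TOP2A were 3.45 and 3.67 times those over TOP2B in controls and 4.71 and 4.82 times in the libraries labelled TOP2B-/-. This ratio does not depend on scaling between libraries, and it was higher by 0.42 on the log2 scale with no overlap. An exact permutation test of 2 against 2 libraries gave a two-sided p of 0.333, the smallest that this design allows.

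TDP1 (chromosome 14, 89955902 to 90044764, plus strand), which hydrolyses the bond between TOP1 and a DNA 3′ end, had 56.3 and 54.8 CPM in controls and 85.6 and 83.8 CPM in the libraries labelled TOP2B-/-. Both of these lay far above both controls. TDP1 rose by 52.5%, a log2 fold change of 0.61 (SE 0.042, 95% interval 0.49 to 0.73) with an edgeR adjusted p of 0.0254. Of 22 tested genes within 2 Mb, 21 had a lower value, and their median was 0.10. TDP2 (chromosome 6, 24649977 to 24666887, minus strand), which releases type II enzymes from DNA 5′ ends, had 24.4 and 25.5 CPM in controls against 28.3 and 27.4 CPM. The groups did not overlap, but the log2 fold change of 0.16 was not called (edgeR adjusted p = 0.326), with a 95% interval from -0.058 to 0.37. Reads over TDP1 were 2.31 and 2.15 times those over TDP2 in controls and 3.03 and 3.06 times in the libraries labelled TOP2B-/-, a difference of 0.45 on the log2 scale (exact permutation p = 0.333, the smallest possible).

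TOP1 (chromosome 20, 41028822 to 41124486, plus strand), the main nuclear type IB enzyme, had 806.3 and 808.1 CPM in controls and 495.8 and 481.3 CPM in the libraries labelled TOP2B-/-. The gap between groups was many times that between replicates. TOP1 fell by 39.5%, a log2 fold change of -0.72 (SE 0.038) with an edgeR adjusted p of 0.0254. TOP1 shared this direction with its chromosome, since the median over 404 other tested genes of chromosome 20 was -0.56 on the log2 scale, with 132 of them called lower. TOP1 lay 0.17 below that median, and 100 of the 404 genes lay lower than TOP1. Among nearby tested genes the log2 fold changes were -0.70 for PLCG1 and -0.38 for ZHX3 on the right and -0.50 for DHX35 on the left, and all 3 were called lower.

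Relative to genes within 2 Mb, of which 5 were tested, TOP1 differed by -0.082. Relative to 83 genes within 5 Mb it differed by -0.17, and relative to 270 genes of the same arm by -0.14. The 4 pairings of a TOP2B-/- library with a control gave -0.21 to -0.12 relative to the chromosome median, whereas the replicates of a group differed by -0.088 and -0.030. Scaling the libraries on chromosome 20 alone gave TOP1 a log2 fold change of -0.16 (SE 0.049, 95% interval -0.30 to -0.024) with an edgeR adjusted p of 0.0538. On that scale TOP1 was not called.

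**Figure D2:**
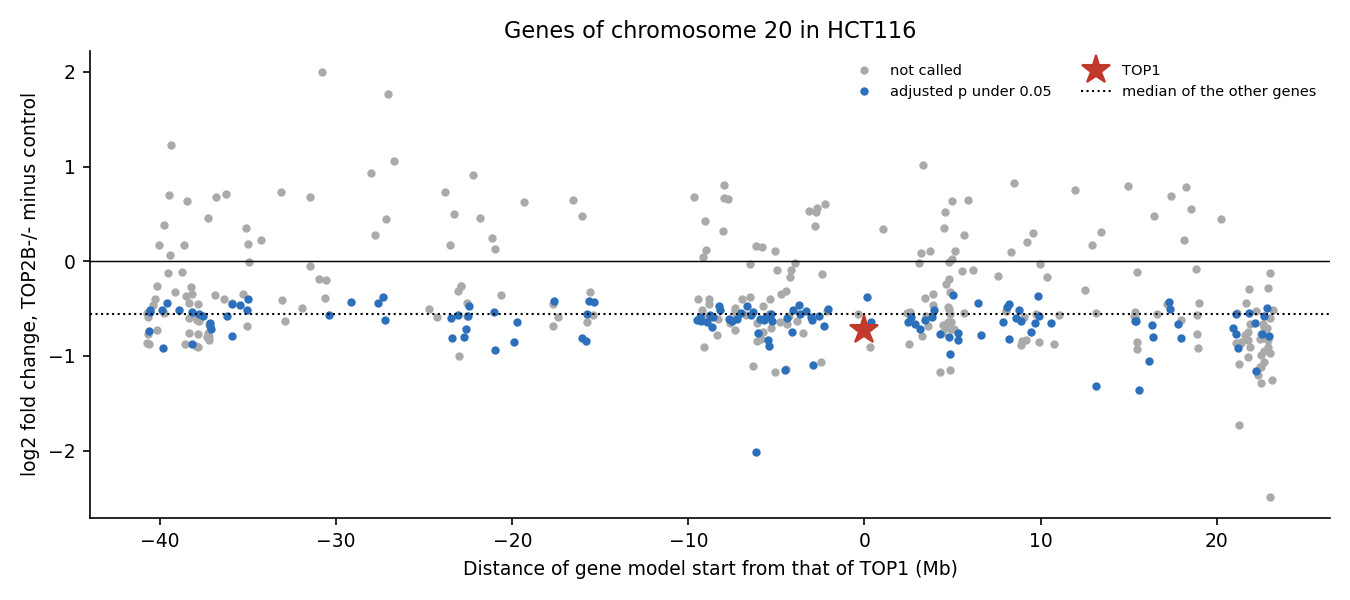
Log2 fold change (TOP2B-/- minus control) of each tested gene of chromosome 20 in HCT116 against the distance of its start from that of TOP1, in Mb. Blue points were called (adjusted p under 0.05), grey points were not, the star is TOP1 and the dotted line is the median of the 404 other genes. TOP1 at -0.72 lies below the median of -0.56, and 100 of the 404 genes lie lower than TOP1.

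The remaining topoisomerases gave lower values that were not called. TOP1MT (chromosome 8, minus strand), the mitochondrial type IB enzyme encoded in the nucleus, had 41.2 and 46.0 CPM in controls and 36.1 and 32.6 CPM in the libraries labelled TOP2B-/-, with a log2 fold change of -0.34 (edgeR adjusted p = 0.142). The 75 tested genes within 2 Mb of TOP1MT had a median of -0.33, whereas all 541 tested genes of chromosome 8 had a median of 0.087. TOP3A (chromosome 17, 18273921 to 18315007, minus strand), which dissolves recombination intermediates with BLM, had 21.1 and 23.8 CPM against 18.2 and 16.8 CPM and a log2 fold change of -0.36 (edgeR adjusted p = 0.179). The groups of both genes did not overlap, and their 95% intervals ended below 0, at -0.087 and -0.047. TOP3B (chromosome 22, 21957025 to 21982843, minus strand), which acts on RNA as well as DNA with TDRD3, had 85.4 and 96.3 CPM against 82.2 and 71.2 CPM. Its log2 fold change of -0.24 was not called (edgeR adjusted p = 0.269), with a 95% interval up to 0.040.

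Of the 8 genes in HCT116, 2 were called lower and 1 higher, beside 1.66% and 1.75% of all 15273 tested genes (3.41% in either direction). The groups did not overlap for any of the 8, against 55.3% of all tested genes. Of these 8, 6 lay lower and 2 higher, where the share over all tested genes was 27.6% in each direction. Of the 6 topoisomerases, edgeR called 0 higher, 0 were higher at an unadjusted p under 0.05, and DESeq2 called 0 higher. The median log2 fold change of the 8 genes was -0.29, and that of all tested genes 0.034. All 3 calls ended when either TOP2B-/- library was left out, although TDP1 then still had log2 fold changes of 0.55 and 0.62, TOP1 of -0.79 and -0.70, and TOP2B of -0.56 and -0.49. In those fits the lone library was assumed to vary like the controls, edgeR adjusted p-values of the 3 genes were 0.210 to 0.302, and 0 of all tested genes were called, with 2266 and 1286 at an unadjusted p under 0.05.

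**Figure D3:**
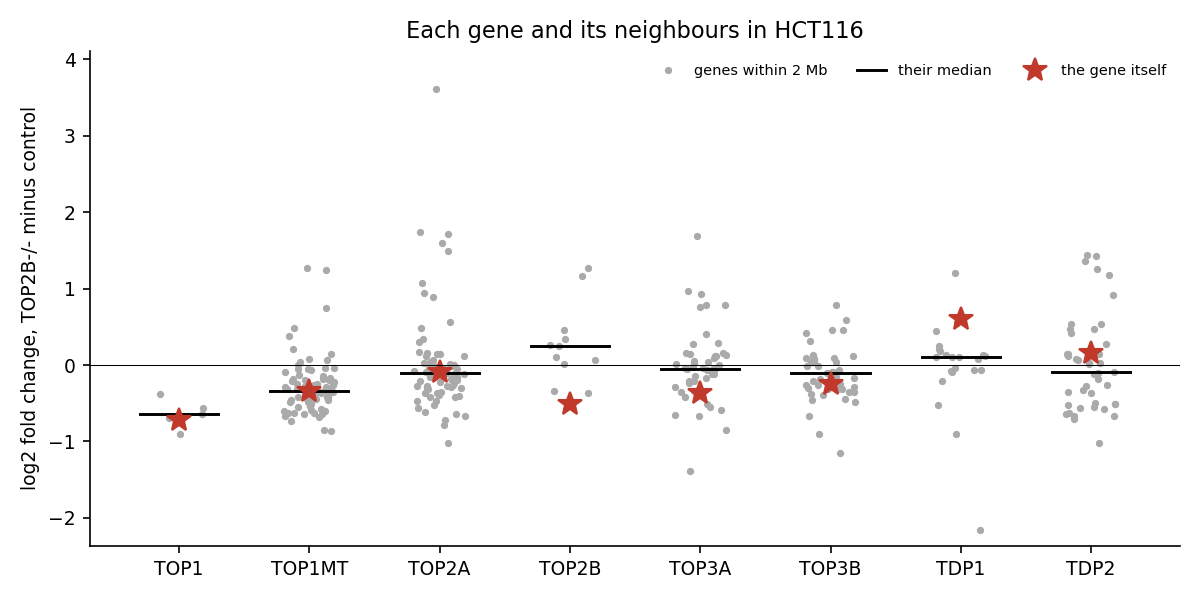
Log2 fold change (TOP2B-/- minus control) in HCT116 of each gene (star) beside the tested genes within 2 Mb of it (grey points, with bars at their medians). TOP2B lies below all 11 neighbours and TDP1 above 21 of 22, while TOP1 and TOP1MT lie near the medians of theirs, -0.64 and -0.33.

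Promoter sequences are shown for the pair of type II enzymes, of which TOP2B was called lower in HCT116 and TOP2A was not, and for TDP1, the gene that rose. They were taken from RefSeq (GRCh38.p14), run 5′ to 3′ on the strand of the gene from 250 bases before to 50 after the start, and 7 of the 8 genes matched an entry. The start used by RefSeq for TOP2A lies 54 bases from that of the counted model. Capitals mark the letters CCAAT, a box bound by NF-Y, on either strand (ATTGG in reverse). The regions are chr17:40417847-40418146 (minus strand) for TOP2A, chr3:25664323-25664622 (minus strand) for TOP2B and chr14:89955677-89955976 (plus strand) for TDP1.
TOP2A: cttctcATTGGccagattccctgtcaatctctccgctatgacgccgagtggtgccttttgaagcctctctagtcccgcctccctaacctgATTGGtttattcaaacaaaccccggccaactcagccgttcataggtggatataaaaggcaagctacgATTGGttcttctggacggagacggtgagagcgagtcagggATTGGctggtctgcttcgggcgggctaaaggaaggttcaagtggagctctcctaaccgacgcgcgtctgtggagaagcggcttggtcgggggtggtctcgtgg
TOP2B: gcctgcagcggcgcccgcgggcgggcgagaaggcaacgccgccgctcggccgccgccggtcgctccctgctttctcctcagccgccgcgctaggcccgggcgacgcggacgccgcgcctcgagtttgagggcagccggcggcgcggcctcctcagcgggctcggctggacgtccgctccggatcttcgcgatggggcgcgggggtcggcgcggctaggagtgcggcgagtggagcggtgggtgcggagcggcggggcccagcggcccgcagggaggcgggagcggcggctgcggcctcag
TDP1: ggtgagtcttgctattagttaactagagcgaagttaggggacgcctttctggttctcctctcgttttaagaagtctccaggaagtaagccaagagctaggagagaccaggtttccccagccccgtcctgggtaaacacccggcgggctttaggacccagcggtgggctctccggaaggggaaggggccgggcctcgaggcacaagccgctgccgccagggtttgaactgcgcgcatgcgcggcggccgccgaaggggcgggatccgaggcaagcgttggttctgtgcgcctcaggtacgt

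The TOP2A window held 4 matches to CCAAT, a number reached or passed by 0.991% of 35116 promoters of this length. The windows of the other 6 genes with an entry held none, and 34.6% of all promoters held a match. GGGCGG on either strand, the letters of a GC box, occurred in all 7 windows, from 1 match in TOP1, TOP2A, TOP2B, TOP3B and TDP1 to 3 in TOP3A and 4 in TDP2, and in 45.0% of all promoters. TATAAA on either strand was found in the TOP2A window alone among the 7 and in 11.5% of all promoters. TTTGAA on either strand, the letters of a cell cycle homology region, was found in the windows of TOP2A (2 matches) and TDP1 (1 match) and in 15.2% of all promoters. Matches of different motifs shared 0 bases in the 7 windows, and a match describes these letters only.

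The DLD-1 comparison asks how nascent reads over the same genes differed after depletion of RPB1. With TMM scaling, higher and lower here are relative to the other genes of a library. They do not measure amounts per cell, so a general loss of nascent RNA would not show in them. All 4 topoisomerases of types IA and II were called lower, beside 35.0% of all tested genes, though the call of TOP2A was lost with background-subtracted counts (-0.025, edgeR adjusted p = 0.847). The type IA pair had the largest differences in deposited counts. After auxin TOP3A lay under the background density and TOP3B near it, so the sizes of these 2 falls are uncertain. TOP3B had 53.5 and 45.5 CPM in controls and 11.7 and 12.4 CPM after auxin. TOP3A had 17.04 and 12.4 CPM in controls and 4.59 and 2.76 CPM after auxin. The groups did not overlap for either gene. TOP3B fell by 2.04 on the log2 scale (SE 0.20, edgeR adjusted p = 0.00429) and TOP3A fell by 1.999 (SE 0.40, edgeR adjusted p = 0.0169).

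TOP2B had 311.3 and 298.2 CPM in DLD-1 controls and 136.6 and 96.2 CPM after auxin. TOP2A had 890.7 and 691.0 CPM in controls and 386.4 and 260.2 CPM after auxin. Every auxin library lay below every control for both genes. TOP2B had a log2 fold change of -1.39 (SE 0.23, edgeR adjusted p = 0.0103) and TOP2A of -1.29 (SE 0.28, edgeR adjusted p = 0.0200). The ratio of TOP2A to TOP2B reads within a library overlapped between groups, at 2.86 and 2.32 in controls and 2.83 and 2.70 after auxin (exact permutation p = 1). Less background, the log2 ratio was 1.52 and 1.24 in controls and 1.68 and 1.84 after auxin, so the groups then stood apart by 0.38.

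TOP1 had 346.7 and 339.3 CPM in DLD-1 controls and 242.6 and 176.5 CPM after auxin, with a log2 fold change of -0.71 (SE 0.21, edgeR adjusted p = 0.0379). Chromosome 20 was not low in this line, where the median over its 494 tested genes was 0.21. TOP1MT had 17.6 and 17.5 CPM in controls and 20.9 and 19.8 CPM after auxin, and its log2 fold change of 0.21 was not called (edgeR adjusted p = 0.402, 95% interval -0.34 to 0.76). The TOP1 groups and the TOP1MT groups each stood apart, in opposite directions. Reads over TOP1 were 19.7 and 19.4 times those over TOP1MT in controls and 11.6 and 8.93 times after auxin, a difference of -0.94 on the log2 scale (exact permutation p = 0.333, 0.667 after adjustment over the 4 ratios of this line). The direction of this ratio turned once background was subtracted, when the log2 ratio was 4.40 and 4.70 in controls and 5.05 in auxin replicate 1, and auxin replicate 2 had 0 reads left over TOP1MT.

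TDP1 had 84.7 and 81.9 CPM in DLD-1 controls and 28.8 and 38.1 CPM after auxin, and TDP2 had 42.3 and 48.8 CPM in controls and 68.7 and 46.7 CPM after auxin. TDP1 was lower in both auxin libraries, while the TDP2 groups overlapped. TDP1 fell by 1.32 on the log2 scale (SE 0.20, edgeR adjusted p = 0.00925), and the TDP2 log2 fold change of 0.34 was not called (edgeR adjusted p = 0.264, 95% interval -0.31 to 0.99). The ratio of TDP1 to TDP2 reads was 2 and 1.68 in controls and 0.419 and 0.816 after auxin, a difference of -1.65 on the log2 scale (exact permutation p = 0.333, 0.667 after adjustment). Reads over TDP1 after auxin lay near the background density, at 1.14 and 1.05 times. The difference was -5.13 with background-subtracted counts, where 60 and 25 reads were left over TDP1 after auxin, so its size is uncertain. In HCT116 the same ratio was higher by 0.45 in the libraries labelled TOP2B-/-, and the comparisons share no libraries. The difference between the 2 effects was not tested.

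**Figure D4:**
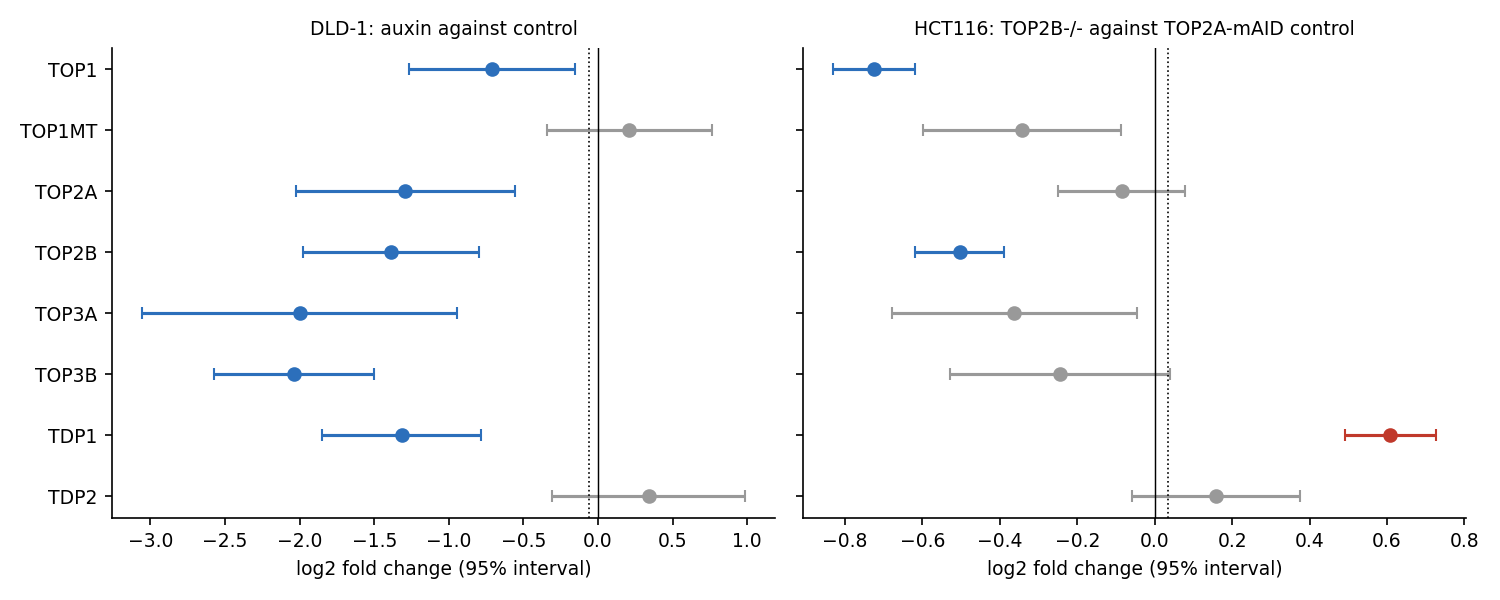
Log2 fold change of each gene with its 95% interval, for DLD-1 auxin against control (left) and HCT116 TOP2B-/- against TOP2A-mAID control (right), on separate axes. Blue and red mark genes called lower and higher, grey marks genes not called, and the dotted line is the median of all tested genes (-0.063 and 0.034). TDP1 is called in both lines, below 0 in DLD-1 and above 0 in HCT116.

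Of the 8 genes in DLD-1, 6 were called lower and 0 higher, beside 35.0% and 32.2% of all 17625 tested genes (67.3% in either direction). The groups did not overlap for 7 of the 8, against 91.0% of all tested genes. Of these 7, 6 lay lower and 1, TOP1MT, higher, beside 46.3% and 44.7% of all tested genes. The median log2 fold change of the 8 genes was -1.30 and that of all tested genes -0.063. Without auxin replicate 1 the genes called were TOP2B and TOP3B, and without auxin replicate 2 they were TOP2B, TOP3B and TDP1. Without either control 5 genes were called, all but TOP1 of the 6. With library totals alone, which moved the median of all tested genes to 0.57, TOP2B, TOP3A and TOP3B were called lower and TOP1MT and TDP2 higher. Calls under these alternatives stand without the share of all tested genes called in the same fits.

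The reads of each gene were also set against the background density times its length. In controls, TOP3A was at 16.3 and 3.16 times background and TOP1MT at 13.7 and 3.61 times, and the other genes were higher. After auxin, TOP3A was at 0.392 and 0.165 times background, TOP1MT at 1.45 and 0.956, TDP1 at 1.14 and 1.05, and TOP3B at 1.60 and 1.18. Silent genes themselves ranged from 0.769 to 1.25 times between their quartiles in auxin replicate 1 and from 0.765 to 1.20 in auxin replicate 2. Reads over TOP3A, TOP1MT, TDP1 and TOP3B after auxin were thus at, near or below this level, and a loss of their nascent RNA beyond that could not be seen.

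TOP2A stayed at 46.1 and 21.7 times background after auxin, TDP2 at 14.3 and 6.76, TOP1 at 8.91 and 4.52, and TOP2B at 7.22 and 3.55. With background-subtracted counts, TDP2 was called higher relative to other genes, with a log2 fold change of 1.51 (edgeR adjusted p = 0.00420). TOP1 turned to 0.36 (edgeR adjusted p = 0.0197), and TOP2A was at -0.025 (edgeR adjusted p = 0.847). TOP2B stayed lower at -0.40 (edgeR adjusted p = 0.0230), whereas the subtraction left 75 and 26 reads over TOP3B after auxin, 60 and 25 over TDP1 and 0 over TOP3A in both libraries. These remainders lay within or close to the spread of silent genes, so TOP3B and TDP1 were lower on this scale too but no size is given. TOP1 and TOP2A were thus called lower in deposited counts only. Once background was subtracted from all genes and the libraries scaled anew, TOP1 no longer fell and TOP2A was not called. The subtraction itself left 6514 of 6658 and 3415 of 3580 reads over TOP2A after auxin.

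**Figure D5:**
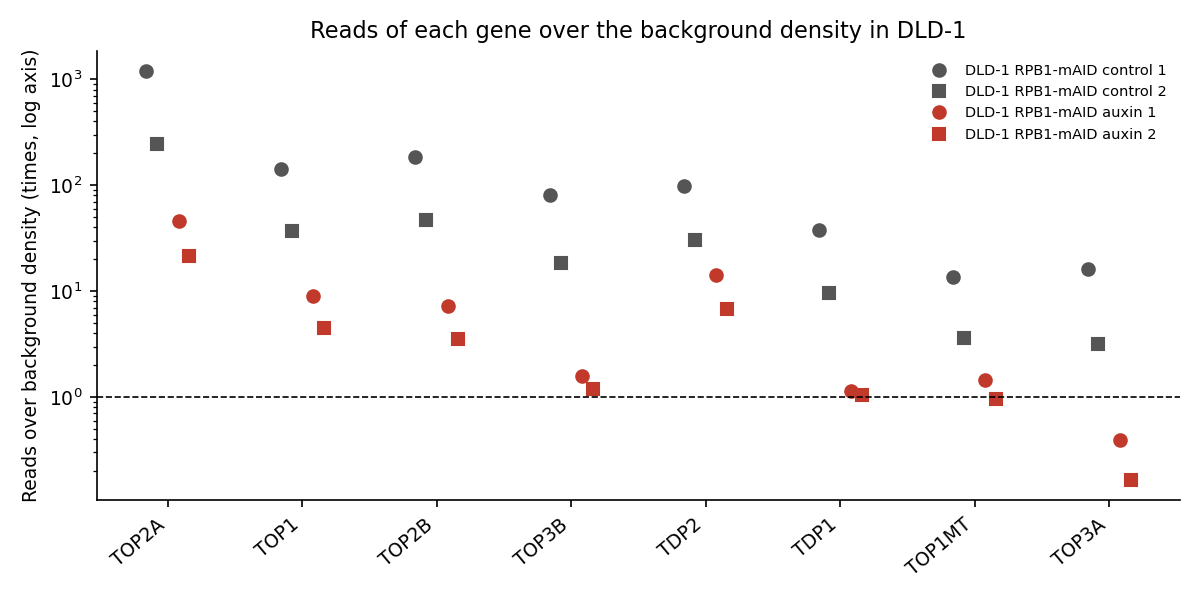
Reads over each gene in DLD-1 as a multiple of the background density measured over silent genes (log axis, dashed line at 1), in each control (grey) and auxin library (red), with circles for replicate 1 and squares for replicate 2. After auxin, TOP3A, TOP1MT, TDP1 and TOP3B lie between 0.165 and 1.60, while TOP2A, TDP2, TOP1 and TOP2B lie at 3.55 or above.

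Genes that work with these enzymes were examined as fixed lists. The 20 repair partners of TDP1 and TDP2 included the break sensor PARP1, the ligase LIG3 and the end-joining factors XRCC4 and LIG4. Of the 20, 16 were called lower in DLD-1 and 0 higher, where 35.0% of all tested genes were called lower. Their median log2 fold change was -1.05, and that of all tested genes -0.063. PARP1 (0.56) and XRCC6 (0.44) were the 2 with values above 0, and neither was called. The largest falls were those of RAD50 (-1.80), a subunit of the MRN complex that processes DNA ends, and SPRTN (-1.74), a protease of DNA-protein crosslinks. Of 8 binding partners, 6 were called lower and 0 higher against the same 35.0%, with a median of -0.97, among them TOPBP1 (-1.88) and TDRD3 (-1.82), the partner of TOP3B. Of the meiotic relatives of type II enzymes, C11orf80 fell by 1.80, and SPO11 was at most 2.84 CPM. Fewer genes of both lists were called lower by edgeR when either auxin replicate was left out. With background-subtracted counts edgeR called 10 repair partners lower and 3 higher, and 4 binding partners lower and 1 higher. The share of all tested genes called in those fits is not given, so such counts do not set the lists apart.

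In HCT116 edgeR called 0 of the 20 repair partners, beside 3.41% of all tested genes, and their median log2 fold change was -0.035. By edgeR 6 were at an unadjusted p under 0.05, and DESeq2 called 2 lower and 3 higher. The largest values were -0.43 for PIAS4, a SUMO ligase, and -0.36 for LIG3. Among 8 binding partners edgeR called 0, with a median of 0.013, 2 at an unadjusted p under 0.05 and 2 higher by DESeq2. The largest values were 0.32 for RMI1, a partner of TOP3A and BLM, and 0.18 for TDRD3. Among the meiotic relatives, C11orf80 was not called (-0.19), and SPO11, with 11 reads over 4 libraries, was not tested. Counts at an unadjusted p and by DESeq2 stand here without the share of all tested genes. They do not set these lists apart from other genes.

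Because TOP2A is made mainly in dividing cells, 12 genes of the G2 and M phases were read beside it. In DLD-1 all 12 were called lower, beside 35.0% of all tested genes, with a median log2 fold change of -1.96, led by CCNB1 (-2.71) and CDC20 (-2.67), an activator of the anaphase-promoting complex. Slightly fewer were called when either auxin replicate was left out, and 10 with background-subtracted counts. For those fits the share of all tested genes called is not given. TOP2A, at -1.29, lay among the smaller of these values, which ended at -1.23, and was at -0.025 with background-subtracted counts. In HCT116 edgeR called 0 of the 12, with a median of -0.12, 3 at an unadjusted p under 0.05, and 2 lower and 1 higher by DESeq2. The last 2 kinds of count stand without the share of all tested genes and do not set the list apart. CDC20 (-0.89) and MKI67 (-0.26), the Ki-67 gene, had the largest values there. In bulk libraries, fewer cells in a phase and fewer reads per cell cannot be told apart.

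Across all 8 libraries, the genes most like each of the 8 were sought by Euclidean distance in log2 CPM centred within each line, over 15205 genes tested in both. UQCC1 (distance 0.17), MED22 (0.21) and PTPN1 (0.23) were nearest to TOP1, and UQCC1 and PTPN1 also lie on chromosome 20. TPM1 (0.14), CLCN2 (0.15) and SAT1 (0.18) were nearest to TOP2B, and PDXK (0.065), RRN3 (0.070) and ACAA1 (0.086) to TOP2A. SIPA1L2 (0.11), ACTR3C (0.16) and MBOAT1 (0.19) were nearest to TDP1, and DYRK4 (0.063), SPCS3 (0.12) and TCEAL4 (0.13) to TDP2. Genes near TOP3A included NPRL2 (0.15) and GBA2 (0.17). The nearest were, for TOP3B, CLCN6 (0.095), KBTBD7 (0.11) and CANT1 (0.12), and, for TOP1MT, RRAS (0.098), WRAP53 (0.12) and FOXD2 (0.16). No gene of the 8 was among the 3 nearest to another.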

How the data were processed

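The authors deposited raw read counts per gene model in 1 table per cell line, over the span of each model, so introns were counted. The submitters' processing notes name STAR, DESeq2 and hg38. Settings, use of strand and the counting tool's version were not given in the sources used here, so reads of overlapping genes could be shared. Comparison tables of the authors hold fold changes, p-values and normalized values of genes they called and were not used. Every count column was assigned to a library. The accompanying paper covers another experiment, so its design and values were not used.

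Samples were grouped by title and genotype. Each comparison was fitted on its 4 libraries in edgeR 4.0.16 (R 4.3.3) by its quasi-likelihood test, with filterByExpr, TMM scaling, two-sided p-values and Benjamini-Hochberg adjustment over all tested genes at 0.05. Standard errors came from the F statistic. Replicates differed beyond sampling noise in all 4 groups. The procedure was tested on simulated data. Background density was the median count per base over 3095 genes silent in the other line, taken as the lowest 20% of models of at least 5000 bp on each chromosome. Background-subtracted counts were floored at 0 and rounded. DESeq2 1.42.0, with and without 1 RUVs factor, other scalings and filters, a replicate block, a fit over all 8 libraries and leaving out each library were alternatives.

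The 8 genes and all lists were chosen with earlier results of these data known. By the rule for named genes, all 8 were named, with the 2 list genes of largest change among those called (or, with none called, tested), the 3 most similar genes, and the nearest tested neighbours of TOP1, apart from items not reported here. Other genes named were chosen after their values were seen, or as background.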

Additional observations from a re-analysis of the deposited data

How the results depend on the processing

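In HCT116, 3 of the 8 genes were called. DESeq2 called 6, background-subtracted counts 5 and the fit over all 8 libraries 0, where 3 were at an unadjusted p under 0.05. Leaving out single libraries gave 0 to 4, with 0 without either library labelled TOP2B-/-, where 5 and 3 genes were at an unadjusted p under 0.05. Directions of all 8 genes were kept in each of the 15 alternatives. In DLD-1, 6 were called. DESeq2 with 1 RUVs factor called 2 (TOP3B and TDP1), leaving out single libraries gave 2 to 5, and the other alternatives gave 5 to 7. TOP3B was called in all 13 alternatives and TOP2B in 12. Background-subtracted counts turned TOP1 to 0.36 (edgeR adjusted p = 0.0197) and TOP1MT to -1.09 (edgeR adjusted p = 0.599). The other directions of single genes in DLD-1 were kept, while the within-library ratio of TOP1 to TOP1MT turned. TOP1 lay 0.17 below the median of chromosome 20, and differed by -0.082 from that of genes within 2 Mb. Leaving out single libraries gave -0.19 to -0.13. Counts of called genes under the alternatives in this paragraph stand without the share of all tested genes called. They show how calls varied with processing and do not set the 8 genes apart from other genes. The cause of these shifts was not tested, apart from the background itself.

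Replicate numbers are shared between groups, but nothing in the labels says that they pair the libraries. Same-numbered libraries deviated together in DLD-1 (r = 0.58 across genes) and in opposite directions in HCT116 (r = -0.83). With the replicate number as a block, 6 genes were called in DLD-1 and 0 in HCT116, where 3 were at an unadjusted p under 0.05 and 0 of all tested genes were called, with 2177 at an unadjusted p under 0.05. With the numbers of the TOP2B-/- libraries crossed, a setting chosen after seeing the data, 5 of the 8 genes and 1808 of all tested genes were called in HCT116. Counts over the lists under these alternatives were also added after seeing the data, and stand without the share of all tested genes called.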
